A study of Homo sapiens with 8 samples.

Results

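The tripartite motif (TRIM) genes were taken as every line of the deposited count table whose symbol is TRIM followed by a number and at most 1 letter. This gave 73 genes of 58302, of which 47 had enough counts to be tested among 15712 genes. No line carried the symbol TRIM47, and the 73 include TRIM75P and TRIM80P, which are named as pseudogenes. The libraries came from HCT116 p53+/+, an established line of human colon cancer cells whose p53 gene is wild-type. The cells received 1 µM MANIO, a compound known here by its code name alone, or the solvent DMSO, and were collected after 24 hours. The labels give 4 libraries a group, called biological replicates, all from the same cell line and with no other genotype or dose. They do not say whether flasks were set up on separate days, so a p measures the spread between these 4 libraries.

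TRIM proteins share an N-terminal arrangement of a RING finger, 1 or 2 B-boxes and a coiled coil, and most act as E3 ubiquitin ligases, the enzymes that pass ubiquitin from an E2 enzyme to a chosen substrate. The C-terminal part differs between subfamilies and picks the substrate: PRY-SPRY domains bind proteins such as viral capsids, NHL repeats bind RNA or protein, and the PHD-bromodomain pair reads histones. The family is known for restriction of viruses and for interferon signalling. Several members are also known to act on p53 or to be induced by it. The members and the groups below were chosen with earlier results of these data known.

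The promoter sequences are shown because interferon-responsive and p53-responsive elements are the features by which this family is usually discussed. RefSeq promoters on GRCh38.p14 were found by symbol for 55 of the 73 genes, 34 of them tested, and the 250 bases before each annotated start were searched. The tested genes not found, and so not searched, were TRIM22, TRIM29, TRIM8, TRIM55, TRIM35, TRIM11, TRIM28, TRIM16L, TRIM24, TRIM27, TRIM13, TRIM4 and TRIM45. The core of the interferon-stimulated response element, GAAANNGAAA on either strand, was present in 7 of the 34 tested genes (20.6%) and in 3.07% of all 27305 promoters. The p53 half-site, in its usual degenerate form, was found in 1 of the 34 (2.94%) and in 5.53% of all promoters. No pair of half-sites within 13 bases of each other was present in any of the 55, against 0.0293% of all promoters. A match is a run of letters, and no binding was measured here. Both motifs are in capitals below. TRIM5, TRIM14 and TRIM26 are shown as carriers of the interferon core whose transcripts were higher in MANIO. TRIM69 is shown as a carrier whose transcript was lower, and TRIM10 as the only one of the 34 with the half-site. The core was also present in TRIM2 and TRIM16, called lower, and in TRIM44, which did not pass. In TRIM5 and TRIM14 the core begins 27 and 26 bases before the start. For TRIM5 and TRIM69 the RefSeq start lies inside the GENCODE gene span, so other starts may be used.
TRIM5, chr11:5685075-5685324 (minus strand): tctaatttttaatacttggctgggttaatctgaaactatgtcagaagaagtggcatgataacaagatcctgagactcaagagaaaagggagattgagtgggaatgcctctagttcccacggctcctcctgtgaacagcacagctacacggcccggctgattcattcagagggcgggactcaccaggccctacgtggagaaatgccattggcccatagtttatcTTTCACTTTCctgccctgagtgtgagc
TRIM14, chr9:98119223-98119472 (minus strand): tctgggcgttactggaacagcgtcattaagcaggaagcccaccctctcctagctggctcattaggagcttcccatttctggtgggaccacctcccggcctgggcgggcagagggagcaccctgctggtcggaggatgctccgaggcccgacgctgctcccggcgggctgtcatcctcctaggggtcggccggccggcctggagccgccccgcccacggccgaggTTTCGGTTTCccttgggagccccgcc
TRIM26, chr6:30213407-30213656 (minus strand): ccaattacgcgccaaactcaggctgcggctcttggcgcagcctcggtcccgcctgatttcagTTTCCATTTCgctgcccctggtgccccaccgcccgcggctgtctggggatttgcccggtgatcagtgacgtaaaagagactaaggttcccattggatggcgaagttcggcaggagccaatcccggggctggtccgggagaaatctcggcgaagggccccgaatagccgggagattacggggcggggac
TRIM69, chr15:44736278-44736527 (plus strand): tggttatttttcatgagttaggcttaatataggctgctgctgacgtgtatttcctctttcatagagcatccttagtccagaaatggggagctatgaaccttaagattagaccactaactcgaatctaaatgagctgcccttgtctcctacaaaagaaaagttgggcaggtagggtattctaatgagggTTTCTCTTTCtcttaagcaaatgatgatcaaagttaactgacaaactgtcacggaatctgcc
TRIM10, chr6:30161212-30161461 (minus strand): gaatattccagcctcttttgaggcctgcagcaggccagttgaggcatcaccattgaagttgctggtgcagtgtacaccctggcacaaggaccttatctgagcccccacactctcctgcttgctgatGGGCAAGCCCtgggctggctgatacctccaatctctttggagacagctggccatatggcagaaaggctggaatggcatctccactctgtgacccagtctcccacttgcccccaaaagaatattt

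Library totals lay between 27945196 and 32509020 counts, above the approximate number of raw reads that the labels give, and the labels do not say how reads or mates were counted. DMSO replicate 1 stood apart, with 7.48% of its counts in mitochondrially encoded genes against 4.82% to 5.21% in the other DMSO libraries and 6.70% to 7.62% in MANIO. Fits without it are given where they change a result. Markers of colon epithelium summed to 2605 to 2903 CPM (counts per 1e6 counts, TMM-scaled) in DMSO and 3220 to 3679 CPM in MANIO. KRT8, KRT18, CDH1 and EPCAM were abundant, while the intestinal genes VIL1 and CDX1 had 33 and 2 counts in all. CDX2, an intestinal transcription factor gene, was at 15.7 ± 1.58 (DMSO) and 18.3 ± 1.97 (MANIO) CPM (edgeR adjusted p = 0.0456). The 6 leukocyte markers summed to at most 0.538 CPM in any library. The 5 fibroblast markers summed to 21.6 to 26.5 CPM in DMSO and 39.5 to 47.7 CPM in MANIO, nearly all of it COL1A1, and DCN had 1 count. The part of such cells in the results was not tested.

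More TRIM genes were higher than lower after MANIO. In bulk RNA, fewer cells of a type and less RNA per cell cannot be told apart. Of the 47 tested, 33 passed edgeR's quasi-likelihood test at an adjusted p under 0.05 (70.2%), beside 54.6% of all tested genes. Higher in MANIO were 25 (53.2%, all genes 27.8%) and lower were 8 (17%, all genes 26.8%). The rises of called members ran from 1.11-fold to 6.44-fold with a median of 1.42-fold, and the falls from 1.17-fold to 1.48-fold. At 1.5-fold or more, 11 were higher (23.4%, all genes 11.1%) and 0 were lower (all genes 6.85%). At 2-fold or more, 4 were higher (8.51%, all genes 4.53%). TRIM29 passed the filter on low counts through 4 MANIO and 0 DMSO libraries, and TRIM73 through 3 and 1. Both are among the 25 and the 11 counted higher, and TRIM29 is among the 4. At their DMSO levels alone neither would have been tested, so they add no independent evidence of direction to these shares. The lowest MANIO value exceeded the highest DMSO value for 23 members (48.9%, all genes 24.7%) and the reverse held for 6 (12.8%, all genes 23.7%). The median log2 fold change, MANIO over DMSO, was 0.19 over the tested members and 0.00429 over all tested genes. These shares are descriptions, and the difference between the family and other genes was not tested.

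**Figure D1:**
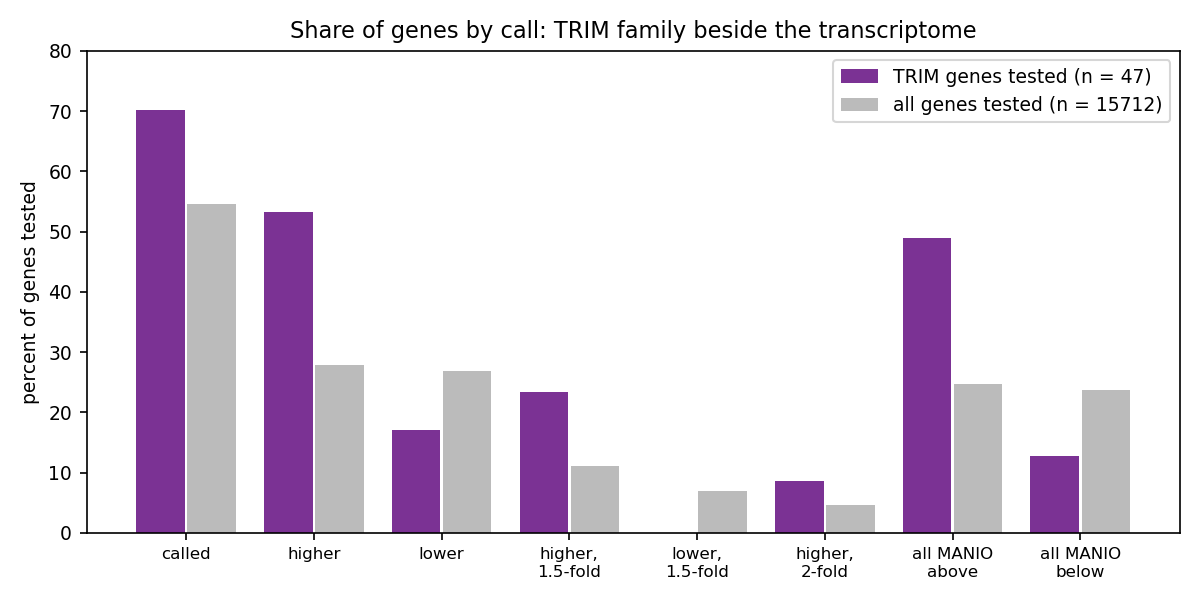
Percent of tested genes that meet each rule (vertical axis), for the 47 tested TRIM genes (purple) and all 15712 tested genes (grey). Rules are called at an adjusted p under 0.05, in either or 1 direction, with a fold limit, or with groups that do not overlap; 53.2% of the TRIM genes were called higher against 27.8% of all genes.

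**Figure D2:**
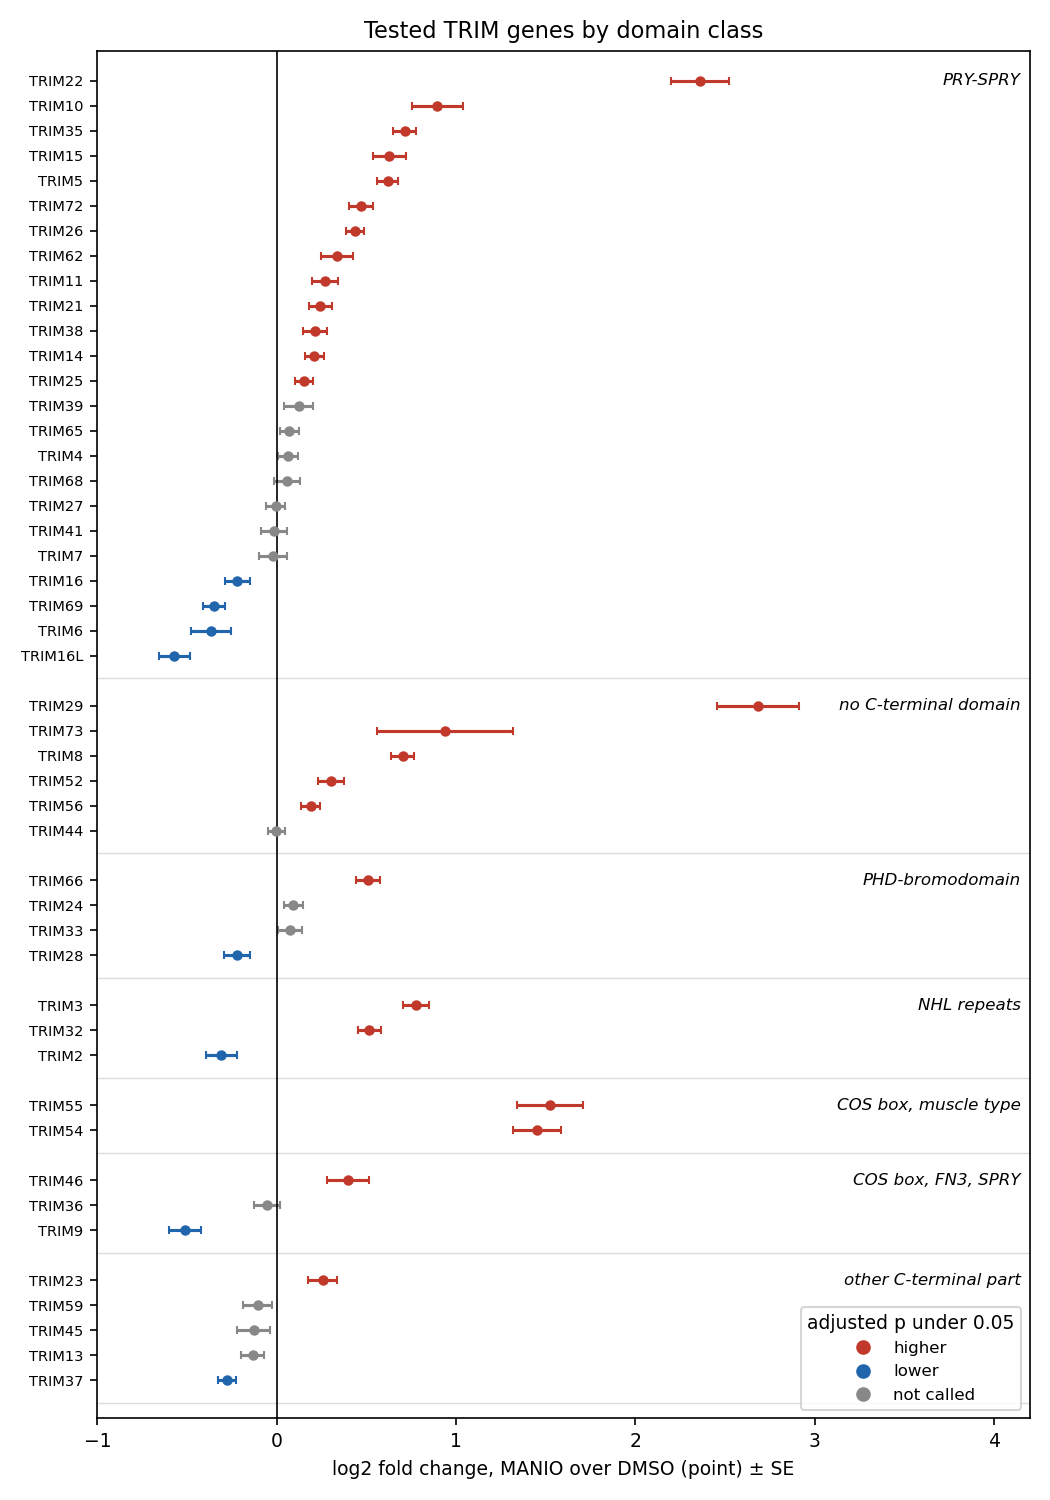
Log2 fold change, MANIO over DMSO, with its SE (horizontal axis) for each of the 47 tested TRIM genes, grouped by C-terminal domain and coloured by call. TRIM29 and TRIM22 lie farthest to the right, and the falls lie between -0.57 and -0.22.

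TRIM29 (ENSG00000137699, chromosome 11, 120111275 to 120185529) lacks the RING finger, is known from basal and squamous epithelium and can hold p53 in the cytoplasm. It had 8, 6, 9 and 5 counts in DMSO replicates 1 to 4 and 52, 59, 50 and 39 in MANIO replicates 1 to 4. As scaled levels these were 0.298, 0.210, 0.286 and 0.178 CPM and 1.65, 1.80, 1.58 and 1.31 CPM. Every MANIO library was far above the highest DMSO library, and the DMSO values rest on few reads. The gene passed the filter on low counts through its MANIO libraries alone (0 DMSO libraries reached the 0.331 CPM the filter asks for), so a gene at this DMSO level without a rise would not have been tested. Its log2 fold change was 2.69 (SE 0.229), with an adjusted p of 1.7e-07 in edgeR's quasi-likelihood test.

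TRIM22 (ENSG00000132274, chromosome 11, 5689689 to 5737089), an interferon-inducible antiviral ligase and an established p53 target, had 16, 15, 23 and 19 counts in the DMSO libraries and 113, 97, 97 and 104 in the MANIO libraries. The scaled levels in MANIO were 3.58, 2.96, 3.07 and 3.50 CPM, against 0.595, 0.524, 0.732 and 0.675 CPM in DMSO. The groups were far apart, and the spread within MANIO was small beside the 5.14-fold difference (log2 2.36, SE 0.160, edgeR adjusted p = 1.6e-08). The olfactory receptor gene OR56B1, which was not tested, shares 10.7% of its exonic bases. TRIM22 was a minor transcript in both groups: per kilobase of exon it reached 0.544 ± 0.0514 CPM, while TRIM5 beside it reached 9.47 ± 0.265 CPM (SD, n = 4 each).

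The muscle-type members rose as a pair. TRIM54 and TRIM55, with TRIM63, encode the MURF proteins, which bind microtubules and sarcomeres of striated muscle. TRIM54 (ENSG00000138100, chromosome 2, 27282392 to 27307439) was at 1.64, 1.40, 2.20 and 1.99 CPM in DMSO and 4.97, 4.91, 5.28 and 4.68 CPM in MANIO. TRIM55 (ENSG00000147573, chromosome 8, 66126896 to 66175487) was at 0.707, 0.734, 0.795 and 1.24 CPM in DMSO and 2.41, 2.29, 2.40 and 2.96 CPM in MANIO. Neither gene's groups overlapped, and DMSO replicate 4 had the highest TRIM55 level of its group. The log2 fold changes were 1.45 (SE 0.133) and 1.53 (SE 0.185), with adjusted p of 3.6e-07 and 6.3e-06 in edgeR's quasi-likelihood test. TRIM63, the best known of these genes for muscle wasting, had 0 counts in every library, which allows up to 0.0125 CPM (3 counts over the 8 libraries; counting error only).

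The 9 striated muscle markers summed to 127 to 143 CPM in DMSO and 97.3 to 110 CPM in MANIO, most of it TNNT1, which was lower (log2 fold change -0.43). MYOD1, MYOG and MYH2 were at 0 in all 8 libraries. DES was at 2.55 ± 0.248 (DMSO) and 3.03 ± 0.143 (MANIO) CPM (edgeR adjusted p = 0.0811), and all its MANIO values lay above its DMSO values. The same held for ACTA1 at 0.118 ± 0.0875 (DMSO) and 0.349 ± 0.0554 (MANIO) CPM and TNNT3 at 0.00888 ± 0.0178 (DMSO) and 0.264 ± 0.0751 (MANIO) CPM, which had too few counts to be tested, as did CKM and MYH7. The part of these levels in the rise of the MURF genes was not tested. TRIM72, the membrane repair gene of muscle also called MG53, was well above the MURF genes in these cells. It rose from 50.9 ± 2.11 to 70.5 ± 6.38 CPM (SD, n = 4 each; log2 0.47, edgeR adjusted p = 3.0e-05).

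Of the interferon and antiviral members on the list used here, all tested but 1 were higher. Of the 9 listed, 8 were tested, 7 were higher and 1, TRIM6, was lower, with TRIM34 untested (all genes 27.8% higher and 26.8% lower). The list was drawn up with earlier results of these data known, the rise of TRIM22 among them. Its count depends on which members were listed and is no independent evidence of direction. After TRIM22 the largest rise was in TRIM5, which recognises retroviral capsids. It was at 31.2, 27.95, 29.1 and 30.3 CPM in DMSO and 44.3, 46.4, 44.5 and 46.7 CPM in MANIO. The 2 ranges are narrow and well separated (log2 0.62, SE 0.0572, edgeR adjusted p = 4.0e-07).

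The rest of the listed antiviral members that were higher moved by smaller amounts. TRIM21, the cytosolic antibody receptor, went from 17.8 ± 0.896 to 21.1 ± 0.832 CPM (log2 0.24), and TRIM14, a RING-less partner of mitochondrial antiviral signalling, from 41.9 ± 1.00 to 48.5 ± 2.27 CPM (log2 0.21). TRIM56, which takes part in DNA sensing, went from 59.8 ± 2.90 to 68.2 ± 0.982 CPM (log2 0.19). TRIM25, the ligase that activates the RNA sensor RIG-I, was the most abundant of them and went from 226 ± 8.40 to 251 ± 11.7 CPM (SD, n = 4 each; log2 0.15). TRIM38, which limits innate signalling, had overlapping groups (47.8 ± 3.95 and 55.4 ± 3.37 CPM; log2 0.21). The edgeR adjusted p of these 5 genes lay between 0.00475 and 0.0226. TRIM25 lost its call in 4 of 8 fits that left out 1 library, those without MANIO replicate 1 or 2 or DMSO replicate 3 or 4, and TRIM38 in 1, without DMSO replicate 3 (edgeR adjusted p = 0.0613).

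The signalling genes around these ligases were mixed. Of 18 tested genes for RIG-I sensing and interferon signalling, 7 were higher, 2 were lower and 9 did not pass. Over all genes 54.6% were called, 27.8% higher and 26.8% lower, so the share of 9 in 18 called is near that of all genes. Their median log2 fold change was 0.16. The adaptor gene MAVS rose from 235 ± 2.98 to 299.8 ± 9.05 CPM (log2 0.35), the transcription factor gene STAT2 from 70.1 ± 4.38 to 90.9 ± 1.54 CPM (0.37) and the RIG-I gene DDX58 from 20.8 ± 2.41 to 27.8 ± 3.01 CPM (0.42). IFNAR2, a subunit of the type I interferon receptor, and the kinase gene JAK1 fell by 0.22 and 0.16 on the log2 scale.

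TRIM genes that lie side by side did not always move together. TRIM6, TRIM34, TRIM5 and TRIM22 are neighbouring paralogs on the short arm of chromosome 11. TRIM5 and TRIM22 rose, while TRIM6, a ligase that makes free ubiquitin chains in interferon signalling, was lower: 4.46, 4.68, 5.50 and 5.51 CPM in DMSO and 4.34, 3.72, 3.54 and 4.07 CPM in MANIO. All MANIO values lay below all DMSO values, by a narrow margin (log2 -0.37, SE 0.110, edgeR adjusted p = 0.0111). TRIM34 had 1 count in all, and 83.0% of its exonic bases also belong to the TRIM6-TRIM34 read-through gene, which was at 0 in every library. The read-through gene covers 29.3% of TRIM6 as well, so both counts are uncertain. As annotated in GENCODE 29, TRIM5 spans 275 kb and encloses TRIM22.

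In the MHC region of chromosome 6, TRIM10, TRIM15 and TRIM26 stand in a row and were all higher. TRIM10, a gene of erythroid differentiation, was at 2.12, 1.85, 2.93 and 2.88 CPM in DMSO and 4.37, 4.54, 5.06 and 4.27 CPM in MANIO (log2 0.89, SE 0.141, edgeR adjusted p = 7.9e-05). TRIM15, a focal adhesion protein gene, was at 6.44, 6.29, 5.06 and 6.04 CPM in DMSO and 9.73, 9.36, 8.83 and 8.78 CPM in MANIO (log2 0.63, SE 0.0919, edgeR adjusted p = 4.0e-05). The groups of both genes are separate. TRIM26 went from 71.3 ± 1.41 to 96.4 ± 3.55 CPM (SD, n = 4 each; log2 0.44, edgeR adjusted p = 3.8e-06). On either side of that row, TRIM27 (89.6 ± 4.19 and 89.3 ± 3.14 CPM; edgeR adjusted p = 0.949) and TRIM39 (edgeR adjusted p = 0.211) did not pass, TRIM31 had 3 counts in all and TRIM40 had 0. In TRIM39 29.5% of the exonic bases also belong to the TRIM39-RPP21 read-through gene.

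**Figure D3:**
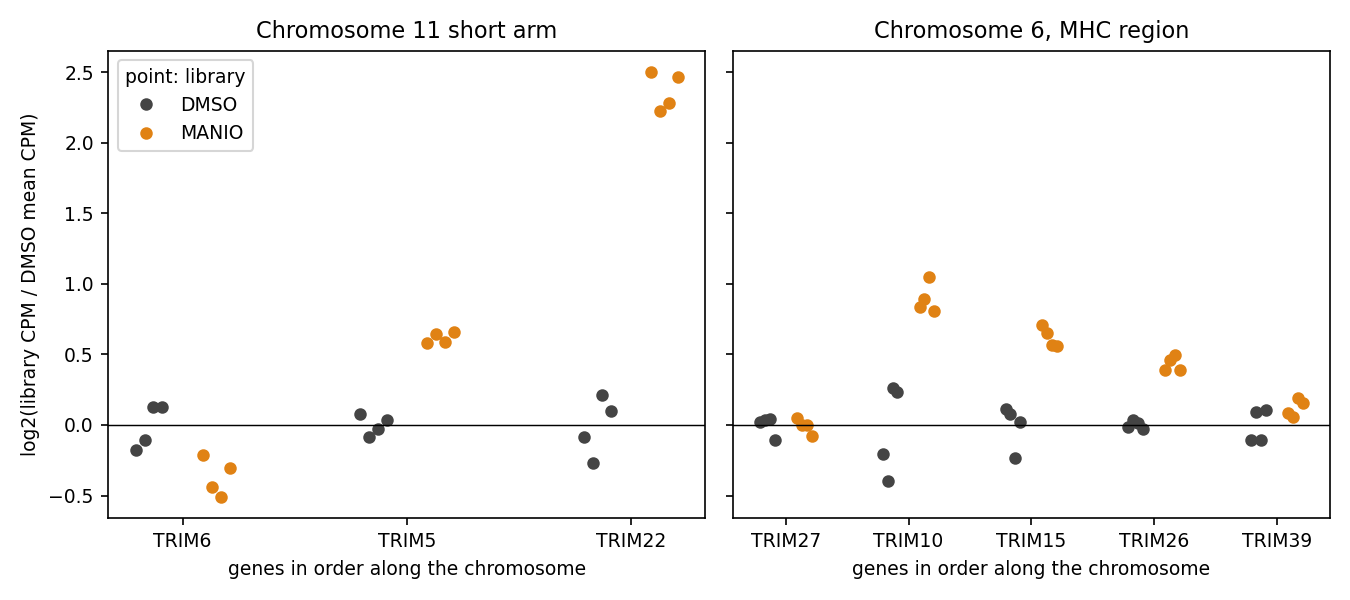
Level of each library as log2 of its CPM over the DMSO mean (vertical axis; points are libraries, grey DMSO, orange MANIO) for tested TRIM genes in order along the short arm of chromosome 11 and the MHC region of chromosome 6. TRIM6 lies below its DMSO libraries while TRIM5 and TRIM22 lie above theirs, and TRIM10, TRIM15 and TRIM26 lie above theirs between TRIM27 and TRIM39, whose groups overlap.

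Outside the family, the nearest tested genes that do not overlap the member were looked at for the 11 members changed at least 1.5-fold. Tested genes that share exonic bases with these members, UCN with TRIM54 and the pseudogenes NSUN5P1 and STAG3L1 with TRIM73, were thus left out. Of 16 such neighbours 7 were higher (43.8%, all genes 27.8%), 2 were lower and 7 did not pass. The following were named after their values were seen. HPX, the hemopexin gene beside TRIM3, had a log2 fold change of 1.82, and DNAJC5G, 0.893 kb from TRIM54, one of 1.18. Beside TRIM8, on the other hand, SUFU (-0.20) and ARL3 (-0.60) were lower.

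Members linked to p53 were called in both directions. Of 11 listed 10 were tested: TRIM29, TRIM22, TRIM8 and TRIM32 were higher, TRIM28 was lower and TRIM13, TRIM24, TRIM39, TRIM59 and TRIM65 did not pass. Called were thus 5 of 10, a share near the 54.6% of all tested genes (27.8% higher and 26.8% lower). TRIM29 was tested through its MANIO libraries alone, and the rise of TRIM22 was known when the list was drawn up. Their rises are thus no independent evidence of direction. TRIM8 (ENSG00000171206, chromosome 10, 102642310 to 102660680) is known to promote p53 activity and to oppose its degradation. It was at 55.0, 62.7, 63.2 and 66.2 CPM in DMSO and 101, 101, 108 and 92.8 CPM in MANIO. An untested lincRNA on the other strand overlaps 14.1% of its exonic bases. Every MANIO library exceeded the highest DMSO library (log2 0.70, SE 0.0649, edgeR adjusted p = 4.0e-07). TRIM32, an NHL-repeat ligase mutated in a muscular dystrophy, rose from 37.4 ± 3.26 to 53.5 ± 1.94 CPM (SD, n = 4 each; log2 0.52, edgeR adjusted p = 1.0e-05).

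TRIM24, a chromatin reader that also ubiquitinates p53, was at 39.7, 39.4, 36.7 and 39.0 CPM in DMSO and 41.2, 41.6, 41.0 and 41.0 CPM in MANIO. Although the MANIO values all lay above the DMSO values, the difference was small and did not pass (log2 0.09, SE 0.0534, edgeR adjusted p = 0.161). TRIM59 (35.2 ± 2.88 and 32.7 ± 3.41 CPM) and TRIM65 (69.1 ± 1.86 and 72.5 ± 3.68 CPM) had overlapping groups (edgeR adjusted p = 0.278 and 0.287). In TRIM59 19.8% of the exonic bases overlap SMC4 on the other strand, which was lower (log2 fold change -0.49), and the strand of the reads is not marked.

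TRIM28, also called KAP1, was the most abundant member and fell slightly. It is the co-repressor that KRAB zinc finger proteins recruit to silence retroelements, and a partner of MDM2. The DMSO libraries held 608, 737, 657 and 621 CPM and the MANIO libraries 598, 609, 543 and 499 CPM. The groups overlap: MANIO replicate 2 exceeded DMSO replicate 1. The log2 fold change was -0.22 (SE 0.0739, edgeR adjusted p = 0.0193), and the call was lost without DMSO replicate 2 (edgeR adjusted p = 0.0693), MANIO replicate 3 (0.0522) or MANIO replicate 4 (0.0554).

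Because TRIM28 holds so many of the family's reads, it weighs on any total. It took 27.6 ± 1.85% of all TRIM counts in DMSO and 22.7 ± 1.54% in MANIO (SD, n = 4 each). All TRIM genes together made up 0.234 ± 0.00773% of the library in DMSO and 0.251 ± 0.00541% in MANIO. Without TRIM28 the shares were 0.169 ± 0.00343% and 0.194 ± 0.00174%. The libraries of the groups did not overlap on either share. For all TRIM genes together the margin was narrow (0.223% to 0.241% in DMSO and 0.243% to 0.255% in MANIO). Without TRIM28 it was wider (0.165% to 0.173% and 0.192% to 0.197%).

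The other PHD-bromodomain genes took different courses. TRIM33, a ligase of SMAD4, was at 92.9, 88.9, 99.0 and 106 CPM in DMSO and 93.8, 101, 98.6 and 114 CPM in MANIO. These ranges overlap (log2 0.07, SE 0.0685, edgeR adjusted p = 0.376). TRIM66, which lacks the RING finger, rose from 28.2 ± 2.02 to 40.1 ± 1.75 CPM (SD, n = 4 each; log2 0.51, edgeR adjusted p = 1.0e-05).

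Of 12 genes for the partners with which TRIM28 silences chromatin, 6 were lower, 3 were higher and 3 did not pass (all genes 26.8% lower and 27.8% higher). Their median log2 fold change was -0.15. The heterochromatin protein gene CBX1 fell by 0.43 on the log2 scale, from 248 ± 9.33 to 184 ± 6.07 CPM. The deacetylase gene HDAC2 fell by 0.30. CHD3, a helicase of the NuRD complex that binds modified TRIM28 (0.22), MORC3 (0.18) and the heterochromatin protein gene CBX5 (0.14) were higher. MORC3 and CBX5 passed narrowly (edgeR adjusted p = 0.0393 and 0.0394), and the groups of CBX5 overlap. SETDB1, the histone methyltransferase of this complex, was at 64.8 ± 1.25 and 67.3 ± 2.35 CPM (edgeR adjusted p = 0.375).

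The remaining members that rose at least 1.5-fold were TRIM3, TRIM35 and TRIM73. TRIM3, a brain-enriched NHL protein gene, was at 14.1, 17.3, 16.9 and 16.8 CPM in DMSO and 27.5, 26.5, 29.9 and 27.5 CPM in MANIO. DMSO replicate 1 was the lowest of its group, and no MANIO library came near the DMSO range (log2 0.78, SE 0.0731, edgeR adjusted p = 4.8e-07). TRIM35, a pyruvate kinase M2 binding protein gene, was at 26.7, 31.1, 31.4 and 29.1 CPM in DMSO and 48.6, 49.8, 50.5 and 45.3 CPM in MANIO. These groups are also separate (log2 0.71, SE 0.0649, edgeR adjusted p = 3.4e-07).

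TRIM73, a partial copy of TRIM50, had only 6, 11, 7 and 3 counts in DMSO and 23, 12, 10 and 12 in MANIO, or 0.223, 0.384, 0.223 and 0.107 CPM and 0.729, 0.366, 0.316 and 0.404 CPM. The 0.331 CPM that the filter on low counts asks for was reached in 1 DMSO library and 3 MANIO libraries. The groups overlap, and MANIO replicate 1 stands above the rest (log2 0.94, SE 0.381, edgeR adjusted p = 0.0485). That call is not stable: DESeq2 gave an adjusted p of 0.0928, and without MANIO replicate 1 the log2 fold change was 0.62 (edgeR adjusted p = 0.188). It was lost in 6 of the 8 fits that left out 1 library, namely those without DMSO replicate 1, 3 or 4 or MANIO replicate 1, 2 or 4. Reads may be shared with its copies TRIM74 and TRIM50, which had 47 and 11 counts in all.

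**Figure D4:**
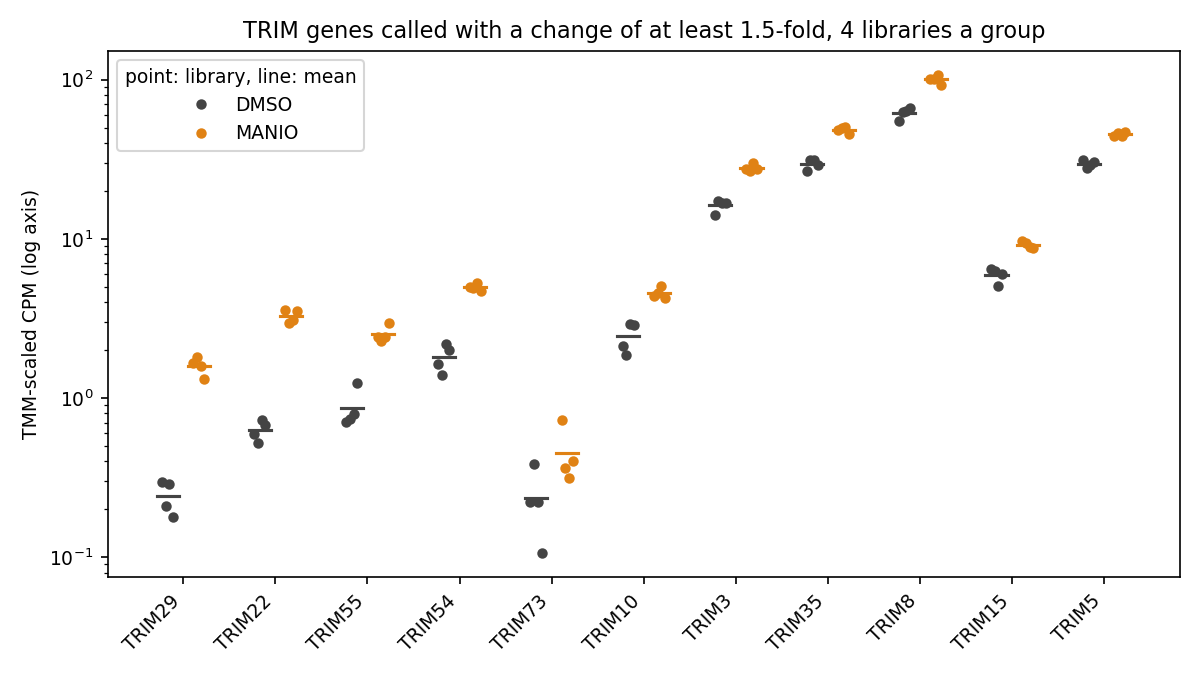
TMM-scaled CPM (log axis) in each of the 4 DMSO (grey) and 4 MANIO (orange) libraries, with group means as lines, for the 11 TRIM genes called with a change of at least 1.5-fold. The groups are separate for 10 of the genes and overlap for TRIM73.

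Smaller rises were found in members with varied roles. TRIM46, which organises axonal microtubules, went from 4.95 ± 0.938 to 6.53 ± 0.212 CPM (log2 0.40), and the epithelial polarity gene TRIM62 from 10.1 ± 0.842 to 12.7 ± 1.21 CPM (log2 0.34). TRIM23, which carries an ARF GTPase domain, went from 27.5 ± 1.97 to 32.8 ± 3.63 CPM (log2 0.26). TRIM11 had a log2 fold change of 0.27 with overlapping groups. TRIM52 rose by 0.30 on the log2 scale, from 14.2 ± 0.608 to 17.5 ± 1.27 CPM (SD, n = 4 each). The edgeR adjusted p of these 5 genes lay between 0.00228 and 0.0129. In TRIM52 28.5% of the exonic bases overlap another gene on the opposite strand, which makes its count uncertain.

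The 8 falls were all under 1.5-fold. TRIM16L and TRIM16 are near-identical genes on chromosome 17 for RING-less PRY-SPRY proteins, so reads may have been split or dropped between them, and 28.7% of the exonic bases of TRIM16 overlap other genes. TRIM16L went from 9.02 ± 0.811 to 6.07 ± 0.286 CPM (log2 -0.57, edgeR adjusted p = 6.6e-05) and TRIM16 from 15.2 ± 0.733 to 13.1 ± 0.633 CPM (log2 -0.22, edgeR adjusted p = 0.014). TRIM9, a neuronal ligase of axon branching, went from 7.08 ± 0.521 to 4.96 ± 0.133 CPM (SD, n = 4 each; log2 -0.51, edgeR adjusted p = 1.8e-04). TRIM37, a centrosome regulator, was also lower. It went from 114 ± 3.85 to 94.5 ± 2.54 CPM (log2 -0.28, edgeR adjusted p = 2.6e-04). In TRIM37 5.91% of the exonic bases overlap AC099850.1 on the other strand, which was also lower (log2 fold change -0.82). TRIM69 fell by 0.35 on the log2 scale, from 22.4 ± 0.642 to 17.6 ± 0.890 CPM. TRIM2, a neuronal NHL-repeat ligase, fell by 0.31 with overlapping groups (72.4 ± 9.14 and 58.5 ± 4.90 CPM), opposite to TRIM3 and TRIM32 of the same domain class.

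Among the members that did not pass, TRIM44 (84.4 ± 2.39 and 84.3 ± 1.39 CPM), TRIM41 (78.6 ± 6.60 and 77.8 ± 6.54 CPM) and TRIM7 (23.6 ± 1.07 and 23.3 ± 2.82 CPM, SD, n = 4 each) had log2 fold changes between -0.02 and 0. TRIM4 (0.07), TRIM68 (0.06), TRIM36 (-0.06), TRIM45 (-0.13) and TRIM13 (-0.14) had overlapping groups as well. TRIM13, an ER-anchored ligase gene, shares 13.4% of its exonic bases with KCNRG and 4.28% with DLEU2. A p that misses the threshold does not show that such a level was the same in both groups.

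Taken by domain class, called members of both directions occurred in 5 of the 7 classes. Over all tested genes 27.8% were higher and 26.8% lower, so both directions within a class are no result about that class. Differences between classes, or from other genes, were not tested. Of 24 tested PRY-SPRY genes 13 were higher and 4 lower, with a median log2 fold change of 0.18. Of 6 genes without a known C-terminal domain 5 were higher and 0 lower (median 0.50). The 5 include TRIM29 and TRIM73, which would not have been tested at their DMSO levels alone. This count and median are thus no independent evidence of direction. The COS-box classes gave 2 higher of 2 for the muscle type, and 1 higher and 1 lower of 3 for the type with FN3 and SPRY domains. NHL genes were 2 higher and 1 lower of 3, PHD-bromodomain genes 1 higher and 1 lower of 4, and the mixed remainder (ARF, MATH, filamin and transmembrane types) 1 higher and 1 lower of 5.

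Levels of different members were compared per kilobase of exon. TRIM28 led in DMSO with 162 ± 14.4 CPM per kb, followed by TRIM25 (23.8 ± 0.884), TRIM37 (20.9 ± 0.702), TRIM65 (17.5 ± 0.471) and TRIM26 (16.3 ± 0.321). TRIM28 was thus far above the next member, while TRIM65 and TRIM26 lay close together. In MANIO TRIM28 and TRIM25 kept the first places (139 ± 12.7 and 26.4 ± 1.23 CPM per kb), and TRIM26 came next with 22.0 ± 0.811, above TRIM65 (18.3 ± 0.930) and TRIM37 (17.2 ± 0.463). TRIM29 was the lowest tested member in DMSO, with 0.0238 ± 0.00572 CPM per kb, and stood above TRIM73 in MANIO, with 0.155 ± 0.0199 and 0.0818 ± 0.0337. The median tested member was at 4.25 CPM per kb in DMSO and 4.16 in MANIO.

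**Figure D5:**
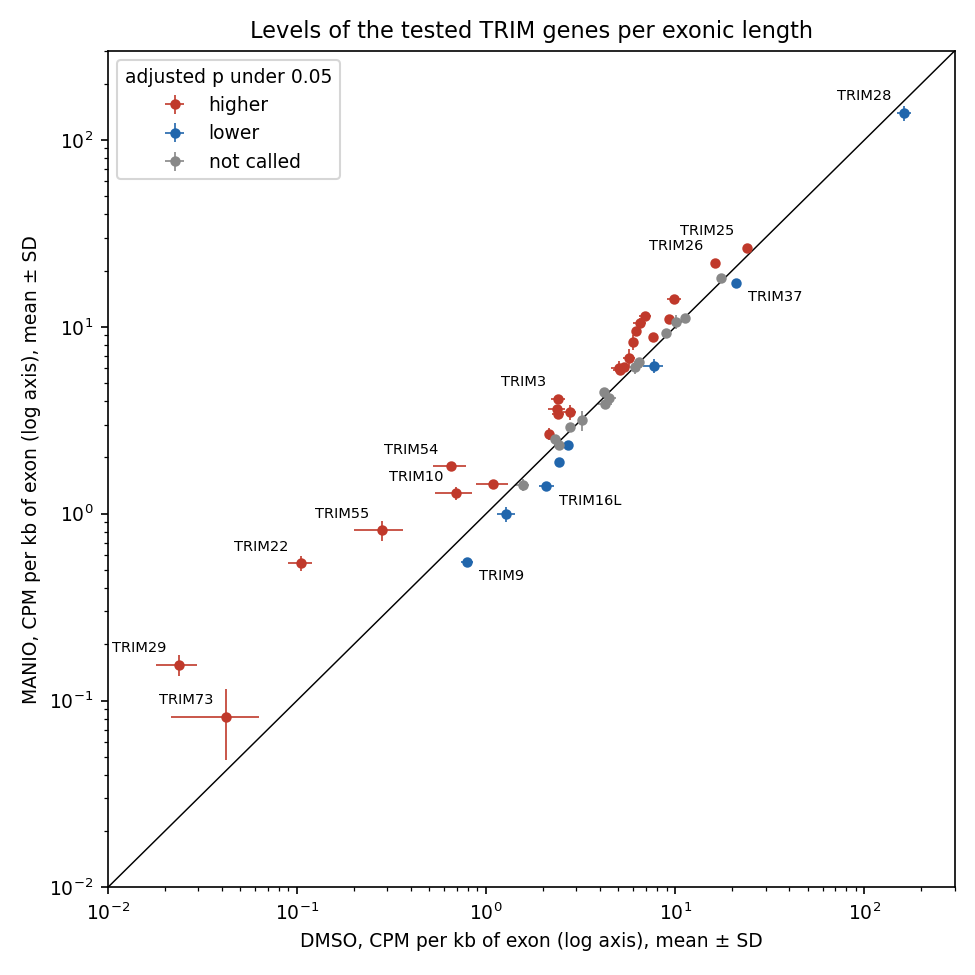
Mean level per kilobase of exon in DMSO (horizontal) and MANIO (vertical), both on log axes with SD bars over 4 libraries, for the 47 tested TRIM genes coloured by call. The line marks equal levels; the points farthest above it, TRIM29, TRIM22, TRIM55 and TRIM54, are among the lowest in DMSO.

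Gene length was set beside the calls. The median span was 25.8 kb for the 25 members called higher, 47.6 kb for the 8 called lower and 22.8 kb for the 14 that did not pass. Among all tested genes in GENCODE 29 the medians were 23.9 kb for those higher and 41.1 kb for those lower. Over the 47 members, which share the same libraries, Spearman's rho between span and log2 fold change was -0.14, and over 15673 tested genes it was -0.15. TRIM9, TRIM2 and TRIM37 were the called-lower members spanning over 100 kb.

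Of the 26 members that were not tested, 14 had 0 counts in every library. They included TRIM58, TRIM42, TRIM40, TRIM61, TRIM63 and the primate-expanded genes TRIM48, TRIM49, TRIM51, TRIM64 and TRIM77 with their copies. Reads that match several copies may have been dropped before counting, so a 0 there does not limit the copies as a group. A further 7 had 1 to 3 counts in all. The other 5 were TRIM74, TRIM80P, TRIM67, TRIM50 and TRIM71, with 47, 32, 28, 11 and 11 counts over the 8 libraries. No untested member exceeded 10 counts in any library.

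Some TRIM proteins carry other names. Of 5 tested, 4 were higher (all genes 27.8%), 0 were lower (all genes 26.8%) and MID2 did not pass (-0.28; edgeR adjusted p = 0.065), with a median log2 fold change of 0.64. TRIML2, a TRIM-like gene without the RING finger, was at 4.05, 4.79, 4.71 and 5.01 CPM in DMSO and 15.6, 15.4, 17.8 and 17.1 CPM in MANIO. No library of either group came near the other (log2 1.82, SE 0.0876, edgeR adjusted p = 4.6e-10). PML, the TRIM protein that builds nuclear bodies and a known p53 target, rose from 25.6 ± 1.37 to 46.4 ± 4.09 CPM (log2 0.86, edgeR adjusted p = 1.3e-07). RNF207 rose by 0.64 and the microtubule-binding ligase gene MID1 by 0.23 on the log2 scale.

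The E1 and E2 enzymes activate and carry the ubiquitin that TRIM ligases pass on. The 11 genes listed are those of the E1 enzyme UBA1, E2 enzymes that work with RING ligases, and the E2 variants UBE2V1 and UBE2V2. Of these 11, 7 were lower, 1 was higher and 3 did not pass (all genes 26.8% lower and 27.8% higher). The median log2 fold change of the 11 was -0.20, and the difference from other genes was not tested. UBE2E3 fell by 0.44 on the log2 scale, from 57.1 ± 3.73 to 42.0 ± 2.47 CPM, UBE2D3 by 0.24 and UBE2E2 by 0.40. UBE2V1, the partner of UBE2N in making lysine-63 chains, was the gene that rose, from 3.40 ± 0.437 to 4.97 ± 0.478 CPM (SD, n = 4 each; log2 0.55, edgeR adjusted p = 0.00113). UBE2N itself fell by 0.20.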

How the data were processed

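Total RNA of HCT116 p53+/+ cells (4 MANIO and 4 DMSO samples) was made into TruSeq v2 libraries, a kit that does not mark strand, and sequenced on an Illumina HiSeq, per the labels' protocols. The authors deposited raw read counts per Ensembl gene, as the whole-number values show. GRCh38 and the tools STAR 2.5.3a, HTSeq, DESeq2 and FastQC 1.3 are listed, without roles, per the submitters' processing notes. Gene annotation version, strand option and handling of multi-mapped reads are unstated in the labels.

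Genes passing filterByExpr were scaled by TMM and tested across the whole table with edgeR 4.0.16 (glmQLFit and glmQLFTest, robust, group alone) in R 4.3.3, with Benjamini-Hochberg adjustment over 15712 genes. Levels are CPM on the TMM scale with their SD, and each SE was derived from the F value. The procedure was tested on simulated data. Positions, spans and exon overlaps are from GENCODE 29 (GRCh38) and promoters from RefSeq (GRCh38.p14). No library repeated another: chi-square over its degrees of freedom was 3.38 to 22.2 within groups.

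The members, gene groups and lists were chosen with earlier results of these data known. Values in every library are given for called members changed at least 1.5-fold, for TRIM24, TRIM28 and TRIM33, and for tested members of the chromosome 11 cluster. From each list outside the family the 3 genes with the smallest p and any of the other direction were named, except an item that is not reported here. Other genes were named after their values were seen: SETDB1, MID2, UBE2N and MID1, and TRIML2 in every library. Alternatives were RLE and upper-quartile scaling, DESeq2 1.42.0, 2 other filters on low counts, a 1.2-fold limit (glmTreat), the replicate number as a block, and each library left out.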

Additional observations from a re-analysis of the deposited data

Results flagged for a closer look

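In each group of 4 libraries, a library was singled out where its gap to the nearest other library took up more of the group's range than Dixon's critical value allows. Of 94 member groups checked, 8 met this, and chance alone gives about 5%. In DMSO, TRIM16L was 10.2 CPM in replicate 2 against 8.59 to 8.67 CPM in the others. TRIM3 was 14.1 CPM in replicate 1 against 16.8 to 17.3 CPM, and TRIM13 was 38.7 CPM there against 32.4 to 33.4 CPM. TRIM55 was 1.24 CPM in replicate 4 against 0.707 to 0.795 CPM, and TRIM27 was 83.3 CPM there against 90.9 to 92.2 CPM. TRIM59 was 30.9 CPM in replicate 2 against 36.2 to 37.3 CPM. In MANIO, TRIM36 was 12.96 CPM in replicate 1 against 14.4 to 14.7 CPM, and TRIM69 was 18.9 CPM in replicate 3 against 16.98 to 17.2 CPM. TRIM3, TRIM55, TRIM16L and TRIM69 kept their calls in each of the 8 fits that left out 1 library.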

How the results depend on the processing

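Of the 33 called members, 29 kept their call in all 8 fits that left out 1 library; the others were TRIM25, TRIM28, TRIM38 and TRIM73. A total of 16 kept it under every alternative run, and a further 13 lost it only against a 1.2-fold limit (glmTreat). None of the 33 changed direction, and 0 of the 14 uncalled members was called under any alternative. Against the 1.2-fold limit 14 members were higher and 2 lower, and the counts in the lists were 1 lower among E1 and E2 enzymes, 2 higher and 0 lower among RIG-I and interferon genes, and 0 higher and 1 lower among TRIM28 partners. In the transcriptome that limit called 4132 genes instead of 8574. The partners counted higher were 1 with upper-quartile scaling and 1 to 3 with a library left out. RIG-I and interferon genes counted higher were 5 with no filter on low counts and 5 to 8 with a library left out (8 without DMSO replicate 1). TRIM proteins of other names counted lower were 1 with no filter on low counts and 0 to 1 with a library left out. With a library left out, 22 to 25 members were higher and 7 to 8 lower (24 and 8 without DMSO replicate 1).

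Members near 0 changed sign: with a mean CPM of at least 1 required, TRIM44 had a log2 fold change of 0.0045 and TRIM27 one of 0.0027. With a library left out, TRIM44 ranged from -0.0164 to 0.0146, TRIM27 from -0.0412 to 0.0190, TRIM41 from -0.0726 to 0.0236 and TRIM7 from -0.10 to 0.0380. The cause was not tested. Same-numbered libraries of the groups correlated in their deviations by 0.0385, 0.163, 0.118 and 0.0958, and not every library correlated best with its own number. As not every pair exceeded 0.1, the labels' numbers were not taken as pairs. With the replicate number as a block 24 members were higher and 8 lower, TRIM73 being the call lost (edgeR adjusted p = 0.0535). Scaling moved the median of all genes by less than 0.02 on the log2 scale. Low counts limit TRIM29, TRIM55, TRIM22 and TRIM73.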

Other observations

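A further 39 lines of the table carry names that begin with TRIM but fall outside the rule, such as antisense, read-through and pseudogene entries, and 33 of them were at 0 in every library. Of the 3 that were tested, TRIML2 is described above and TRIM31-AS1 did not pass (edgeR adjusted p = 0.86). TRIM52-AS1, whose annotated span lies 0.073 kb from that of TRIM52, was lower while TRIM52 was higher. Its level was 6.02 ± 0.197 CPM in DMSO and 3.10 ± 0.556 CPM in MANIO (SD, 4 libraries each). The MANIO libraries lay below all DMSO libraries (log2 fold change -0.96, edgeR adjusted p = 8.9e-06). TRIM52-AS1 was singled out after its value was seen.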
